A study of Homo sapiens with 6 samples.

Results

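The 10 genes ABCA1, ABCA3, ABCB1, ABCB6, ABCC1, ABCC3, ABCC4, ABCC5, ABCG1 and ABCG2 encode ATP-binding cassette (ABC) transporters that carry drugs or lipids. They were found in the expression arrays through the platform's gene symbols, as 10 of the 19775 genes that had a probe set of their own. Together they had 28 such probe sets, and 1 further probe set was annotated to both ABCB1 and its neighbour ABCB4. Each gene is represented by its brightest probe set, judged by the mean of the 6 arrays. SK-N-AS, an established neuroblastoma cell line, had been grown as Monolayer (attached cells, no pretreatment), as Sphere (spheroids in serum-free medium, no pretreatment) and as iCSC. The iCSC cells received 2.5 uM of 5AdC, an inhibitor of DNA methyltransferases, for 5 days while attached, and then grew as spheroids in the same kind of medium as Sphere. In the treatment and culture form stated, iCSC differs from Sphere by the 5AdC pretreatment, and from Monolayer by the pretreatment together with the culture form. Any other difference between the cultures cannot be told apart from these. The series set the cultures side by side to examine their stem cell phenotype. Each culture had 2 arrays, all from 1 cell line, and no label says whether they came from separate flasks, so the p-values capture only how arrays of a culture scatter, and that scatter may be technical.

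ABC transporters use the energy of ATP to move a substrate across a membrane. ABCB1 (P-glycoprotein), ABCG2 (BCRP) and ABCC1 (MRP1) pump many chemotherapeutic drugs out of cells, ABCC3, ABCC4 and ABCC5 export organic anions and nucleotide analogues, and ABCA1, ABCA3 and ABCG1 move phospholipids and cholesterol. In neuroblastoma, drug pumps of this family are studied as sources of multidrug resistance, and dye efflux through ABCG2 and ABCB1 is a common way to sort stem-like tumour cells. DNA methylation sits on a C that is followed by a G, and the arrays measured RNA only, not methylation.

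The stretches of 250 bases before the RefSeq start sites (GRCh38.p14) show how densely such CG pairs lie, and are printed with every CG in capitals. They are given for ABCA3, ABCB6 and ABCC4, whose levels differed between cultures. The stretch of ABCB1, which gave no signal above background in any culture, is printed too. RefSeq windows were at hand for 7 of the 10 genes, and there was none for ABCC1, ABCC3 and ABCG1. The printed windows lie on the minus strand at chr16:2340729-2340978 for ABCA3, chr2:219218959-219219208 for ABCB6, chr13:95301452-95301701 for ABCC4 and chr7:87600885-87601134 for ABCB1.
ABCA3: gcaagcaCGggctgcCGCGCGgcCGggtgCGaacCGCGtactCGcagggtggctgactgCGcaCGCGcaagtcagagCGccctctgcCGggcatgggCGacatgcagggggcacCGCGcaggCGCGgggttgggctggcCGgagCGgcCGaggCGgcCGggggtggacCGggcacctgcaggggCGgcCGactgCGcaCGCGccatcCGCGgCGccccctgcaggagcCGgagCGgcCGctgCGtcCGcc
ABCB6: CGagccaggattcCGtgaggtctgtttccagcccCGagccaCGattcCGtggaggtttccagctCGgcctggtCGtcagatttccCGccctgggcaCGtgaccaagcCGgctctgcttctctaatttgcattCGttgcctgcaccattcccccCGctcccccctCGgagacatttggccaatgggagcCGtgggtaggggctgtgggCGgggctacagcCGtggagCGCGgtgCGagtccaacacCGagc
ABCC4: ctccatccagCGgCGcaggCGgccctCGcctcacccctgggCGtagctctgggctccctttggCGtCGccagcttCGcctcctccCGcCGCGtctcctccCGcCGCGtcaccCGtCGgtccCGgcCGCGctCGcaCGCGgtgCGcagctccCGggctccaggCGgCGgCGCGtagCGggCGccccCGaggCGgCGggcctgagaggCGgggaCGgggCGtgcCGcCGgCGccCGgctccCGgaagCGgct
ABCB1: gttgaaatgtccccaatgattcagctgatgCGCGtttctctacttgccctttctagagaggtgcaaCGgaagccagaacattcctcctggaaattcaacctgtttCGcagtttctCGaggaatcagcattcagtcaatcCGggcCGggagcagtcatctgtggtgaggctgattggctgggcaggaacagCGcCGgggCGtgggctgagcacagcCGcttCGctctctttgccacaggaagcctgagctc
The window of ABCC4 held 42 CG pairs, a number that 1.38% of all 35116 RefSeq windows of this length reach, and that of ABCA3 held 38, which 3.28% reach. ABCB6 had 20 (32.4% of windows reach it) and ABCB1 had 12 (48.5%), while the median window had 11. A second ABCB1 window, ahead of a start site farther upstream, held 1. The sequence CACGTG, which reads the same on both strands and is the core recognised by MYC family factors, occurred once in the ABCB6 window and in none of the ABCA3, ABCC4 and ABCB1 windows. It occurs in 6.34% of all windows. ABCA1 and ABCG2, which gave no signal above background in any culture, also had windows with 1 match. The ABCG2 windows held 2 to 32 CG pairs, and 9.52% of all windows reach 32. A link between these letters and the levels was not tested. A match is a description of letters and not of binding.

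Levels are log2 GCRMA signals, on which a step of 1 is a doubling, and log2 5 is the limit taken as background. A gene was tested when its leading probe set reached that limit on at least 2 of the 6 arrays, and a change was called at an adjusted p under 0.05 (limma with Benjamini-Hochberg adjustment over all 10459 tested genes). Levels of different probe sets cannot be set against each other. Pearson's r over the tested probe sets was 0.995, 0.992 and 0.984 between the 2 arrays of Monolayer, Sphere and iCSC, and 0.747 to 0.879 between arrays of different cultures. Sympathetic neuroblast markers moved with the cultures, but not all alike. Of 12 tested, 11 rose and 0 fell in Sphere against Monolayer, and 0 rose and 10 fell in iCSC against Sphere. In iCSC against Monolayer 7 rose and 2 fell. Only 3 of the 12 were above the limit on all arrays, so the filter set part of these directions. Of 13 on the array, 4 stood at or above the limit on both Monolayer arrays, 12 in Sphere and 10 in iCSC, and their mean level was 4.59 to 4.78, 9.71 to 10.09 and 7.0 to 7.3. DBH, which makes noradrenaline, stayed under the limit on all 6 arrays, and TH, which starts catecholamine synthesis, was under it in Monolayer. Of 15 mesenchymal markers, 12, 11 and 12 stood above the limit, with mean levels of 8.66 to 8.74, 8.56 to 8.59 and 8.97 to 9.35, although 6 rose and 7 fell in Sphere against Monolayer and 7 rose and 6 fell in iCSC against Sphere. At most 1 of 9 leukocyte, 1 of 7 endothelial, 1 of 3 Schwann and 2 of 7 epithelial markers did so in a culture. Those few shifted too: the leukocyte marker PTPRC read 11.64 to 12.52 in Monolayer and Sphere and 2.85 and 2.87 in iCSC, the endothelial marker TEK was above the limit in Monolayer only, the epithelial marker KRT18 fell by 4.90 in Sphere, and the Schwann marker ERBB3 read 7.74 and 7.08 in iCSC and at most 5.21 elsewhere. The 3' control probe set of ACTB exceeded its 5' one, a measure of RNA quality, by 1.47 and 1.40 in iCSC and 1.16 to 1.25 on the other 4 arrays. The part of these shifts in the transporter results was not tested.

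**Figure D1:**
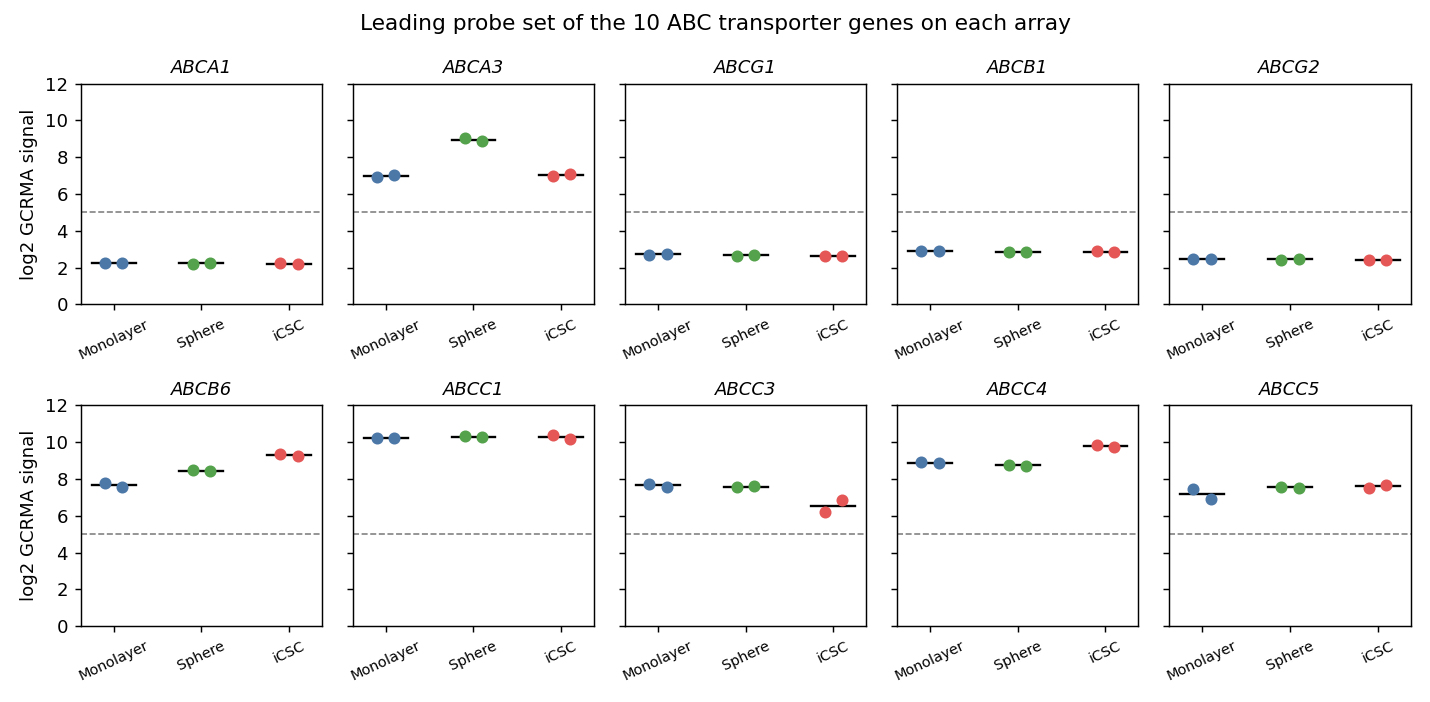
The log2 GCRMA signal (vertical axis) of the leading probe set of each of the 10 transporter genes, with 1 point per array, a bar at the mean of the 2 arrays of a culture and a dashed line at log2 5. ABCA1, ABCG1, ABCB1 and ABCG2 lie under the line on all 6 arrays, ABCA3 is high in Sphere, ABCB6 and ABCC4 are highest in iCSC, and ABCC3 is lowest in iCSC.

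SK-N-AS carried measurable messenger RNA for 6 of the 10 transporters, and 4 of them changed between cultures. ABCA3 rose about 3.93-fold in Sphere and lay within 0.03 of Monolayer in iCSC on the log2 scale, ABCB6 rose in Sphere and again in iCSC, ABCC4 rose and ABCC3 fell in iCSC, and ABCC1 and ABCC5 were not called in any comparison. The 6 genes were ABCA3, ABCB6, ABCC1, ABCC3, ABCC4 and ABCC5, each above the limit on every array. In Sphere against Monolayer 2 of the 6 rose and 0 fell, where 59.0% of all tested genes were called (30.0% higher, 29.1% lower). In iCSC against Sphere 2 rose and 2 fell, against a background of 38.5% (19.3% higher, 19.2% lower). In iCSC against Monolayer 2 rose and 1 fell, against 55.6% (29.0% higher, 26.6% lower). The median log2 fold change of the 6 was 0.22, 0.04 and 0.26 in these comparisons, and that of all tested genes was 0.01, 0.01 and 0.02. The members' counts thus describe these genes and do not set them apart from the rest of the array.

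The sterol exporters ABCA1 and ABCG1, which load cholesterol and phospholipid onto lipoprotein particles, gave no signal above background in any culture. All 4 probe sets of ABCA1 lay between 2.06 and 2.26 and all 4 of ABCG1 between 2.11 and 2.73 on the 6 arrays. The single probe set of ABCG2, the breast cancer resistance protein, lay between 2.41 and 2.47. No probe set among these 9 varied by more than 0.12 over the 6 arrays. No fold is given for them, since all their values are in the band to which GCRMA pulls unexpressed probe sets. A fit without the filter called none of the leading probe sets of ABCA1, ABCG1, ABCG2 and ABCB1 (limma, adjusted p between 0.145 and 0.905 over the 3 comparisons).

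ABCA3, which packs phospholipid into lamellar bodies and lysosome-related vesicles, was the member with the widest span between cultures. Its only probe set read 6.92 and 7.05 in Monolayer, 9.05 and 8.86 in Sphere, and 6.96 and 7.07 in iCSC. Both Sphere arrays stood above all 4 others, and the Monolayer and iCSC arrays overlapped. The log2 fold change was 1.97 ± 0.15 (SE) in Sphere against Monolayer (limma, adjusted p = 7.60e-05) and -1.95 ± 0.15 in iCSC against Sphere (adjusted p = 1.68e-04). Sphere was 3.93-fold above Monolayer and iCSC 3.85-fold under Sphere. For iCSC against Monolayer the difference was 0.03, with a 95% confidence interval from -0.34 to 0.39 (adjusted p = 0.896). In bulk RNA, fewer cells carrying a transcript and less of it per cell cannot be told apart. The span of its 3 culture means was 1.97, and 18.4% of all tested genes had a larger one.

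ABCB1, the P-glycoprotein drug pump, stayed under the limit on all 6 arrays, but its probe sets were not flat. The probe set 209993_at read 2.49 and 2.55 in Monolayer, 2.47 and 2.52 in Sphere, and 3.77 and 3.17 in iCSC. The leading one, 243951_at, did not follow and lay between 2.82 and 2.92 throughout. The probe set shared by ABCB1 and ABCB4, 209994_s_at, read 2.48, 2.56, 2.43 and 2.50 on the Monolayer and Sphere arrays and 4.62 and 3.88 in iCSC. ABCB4, a phosphatidylcholine transporter that lies next to ABCB1 on chromosome 7, showed the same order in 207819_s_at, with 2.48 to 2.56 in the other cultures and 4.57 and 3.16 in iCSC, while its second probe set lay between 2.22 and 2.28.

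Both iCSC arrays thus stood above the 4 others in 3 of the 5 probe sets of this gene pair, without reaching the limit. The lowest iCSC array exceeded the highest other array by 0.62 in 209993_at and by 1.33 in 209994_s_at. Among the 33272 probe sets under the limit on all 6 arrays, 0.373% (124) had a gap of 0.62 or more and 0.0842% (28) one of 1.33 or more. The probe sets and the direction of the gap were singled out after the values were seen. The shares therefore carry no test and cannot say how unusual this gene pair is. The leading ABCB1 probe set, which did not follow, was not ranked in this way. The larger gap is from the probe set annotated to both genes, so it cannot be assigned to ABCB1. These values are no measure of expression, since all of them lie under the limit.

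**Figure D2:**
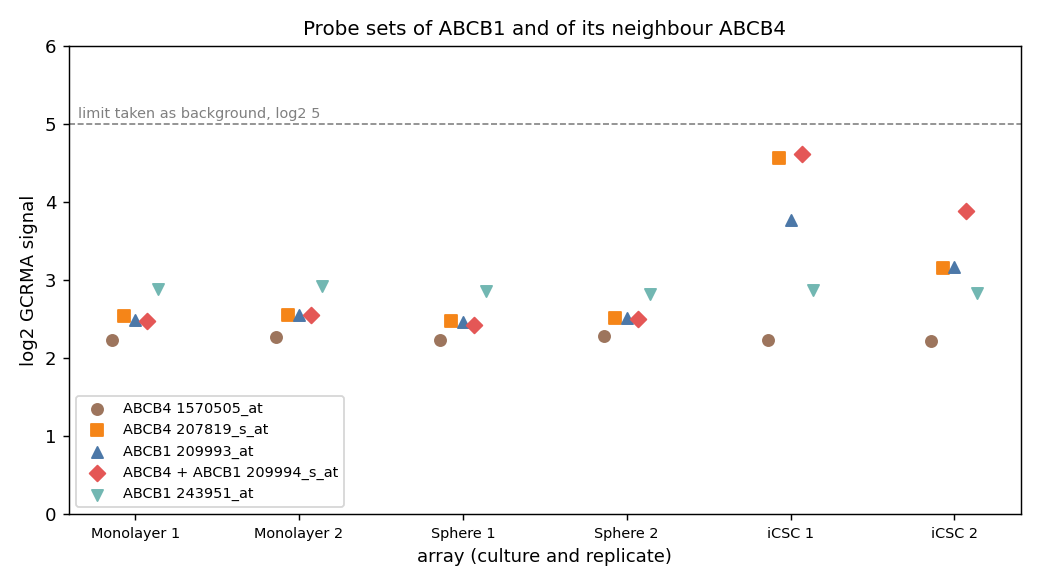
The log2 GCRMA signal (vertical axis) of the 5 probe sets of ABCB1 and ABCB4 on the 6 arrays, 1 symbol per probe set, with the limit of log2 5 dashed. In 209993_at, 207819_s_at and 209994_s_at both iCSC arrays stand above the 4 others, in 243951_at and 1570505_at they do not, and no point reaches the limit.

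ABCB6, a transporter of porphyrins in the outer mitochondrial and other membranes, rose with each step from Monolayer to Sphere to iCSC. The probe set 203192_at read 7.77 and 7.57 in Monolayer, 8.46 and 8.45 in Sphere and 9.33 and 9.25 in iCSC. No arrays of different cultures overlapped. Sphere was 1.72-fold above Monolayer, with a log2 fold change of 0.78 ± 0.13 (limma, adjusted p = 0.00265). iCSC was 1.78-fold above Sphere, with 0.83 ± 0.13 (adjusted p = 0.00379), and 3.07-fold above Monolayer, with 1.62 ± 0.13 (adjusted p = 1.34e-04). A second probe set, 203191_at, lay between 2.60 and 2.68 on all arrays and so measured none of this.

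The tested genes of chromosome 2, where ABCB6 lies, had a median shift of 0.29 in Sphere against Monolayer and 0.27 in iCSC against Monolayer. With the chromosome median of each culture taken off, the Sphere difference of ABCB6 was 0.47 (limma, adjusted p = 0.0231) and was still called. The span of its culture means was 1.62, exceeded by 22.5% of tested genes.

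ABCC1, the multidrug resistance protein that exports glutathione conjugates and drugs, was called in no comparison. The intervals of its leading probe set end at 0.34. Its leading probe set read 10.22 on both Monolayer arrays, 10.31 and 10.27 in Sphere and 10.41 and 10.18 in iCSC. The iCSC arrays bracketed all others. The difference was 0.07 (95% interval -0.19 to 0.33) in Sphere against Monolayer, 0.00 (-0.26 to 0.26) in iCSC against Sphere and 0.08 (-0.18 to 0.34) in iCSC against Monolayer, with adjusted p (limma) of 0.589, 0.979 and 0.570. Of all tested genes, 98.4% had a larger span of culture means than its 0.08. The second ABCC1 probe set, 202805_s_at, read 7.62 and 7.34, 7.70 and 7.70, and 7.45 and 7.59, and was not called either. Its 95% intervals were wider, from -0.16 to 0.61 in Sphere against Monolayer and from -0.56 to 0.20 in iCSC against Sphere.

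ABCC3, an exporter of bile acids and glucuronide conjugates, was lower in iCSC than in both other cultures. Its probe set 208161_s_at read 7.73 and 7.57 in Monolayer, 7.56 and 7.60 in Sphere and 6.18 and 6.87 in iCSC. Both iCSC arrays lay under the 4 others and the Monolayer and Sphere arrays overlapped. The log2 fold change was -1.05 ± 0.24 in iCSC against Sphere (limma, adjusted p = 0.0156) and -1.12 ± 0.24 in iCSC against Monolayer (adjusted p = 0.00809), a 2.08-fold and a 2.18-fold lower level. Sphere and Monolayer differed by -0.07 (95% interval -0.65 to 0.52). The other 4 ABCC3 probe sets lay between 1.80 and 2.69, so the fall rests on 1 probe set.

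The ABCC3 calls were the only member calls lost under an alternative. Against Sphere the call was lost without variance moderation (adjusted p = 0.101), without Sphere replicate 1 (0.0800) and without Sphere replicate 2 (0.0854). Against Monolayer it was lost without moderation (0.0664) and without Monolayer replicate 1 (0.0644). Without iCSC replicate 1, the lower array, the differences were -0.71 and -0.78.

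ABCC4, which exports cyclic nucleotides, prostaglandins and nucleotide drugs, was higher in iCSC than in both other cultures. The leading probe set 203196_at read 8.90 and 8.84 in Monolayer, 8.78 and 8.70 in Sphere and 9.83 and 9.71 in iCSC. Both iCSC arrays stood above the 4 others, and Sphere lay just under Monolayer without being called (-0.13, 95% interval -0.40 to 0.14). iCSC exceeded Sphere by 1.03 ± 0.11 (limma, adjusted p = 7.72e-04), or 2.04-fold. It exceeded Monolayer by 0.90 ± 0.11 (adjusted p = 8.27e-04), or 1.87-fold.

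The second measured ABCC4 probe set, 1554918_a_at, had the same order of cultures with a smaller gap. It read 6.68 on both Monolayer arrays, 6.46 and 6.64 in Sphere and 6.94 and 6.98 in iCSC, and its differences of 0.41 from Sphere and 0.29 from Monolayer were not called (limma over 18059 probe sets, adjusted p = 0.0856 and 0.166). With the mean of both probe sets, iCSC exceeded Monolayer by 0.59 and Sphere by 0.72. Genes of chromosome 13, where ABCC4 lies, had a median shift of 0.37 in iCSC against Monolayer and 0.31 in iCSC against Sphere. With the chromosome median of each culture taken off, the ABCC4 differences were 0.50 and 0.71 (limma, adjusted p = 0.0106 and 0.00446).

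ABCC5, an exporter of cyclic GMP and nucleotide analogues, had 3 measured probe sets that did not move together. The leading one, 209380_s_at, read 7.45 and 6.90 in Monolayer, 7.56 and 7.53 in Sphere and 7.53 and 7.69 in iCSC, so that Monolayer held the lowest array. The differences were 0.37 (95% interval -0.14 to 0.88) in Sphere against Monolayer, 0.07 (-0.44 to 0.58) in iCSC against Sphere and 0.43 (-0.07 to 0.94) in iCSC against Monolayer, with adjusted p (limma) of 0.182, 0.836 and 0.126. In 226363_at, Sphere was instead lower than Monolayer by -0.56 ± 0.32 (adjusted p = 0.180 over probe sets), from 6.98 and 7.37 to 6.88 and 6.34. The third, 1558460_at, read between 4.32 and 5.20, near the limit.

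Genes of chromosome 3, where ABCC5 lies, had a median shift of -0.46 in Sphere against Monolayer and -0.39 in iCSC against Monolayer. With the chromosome median of each culture taken off, ABCC5 was called higher in both, by 0.83 (limma, adjusted p = 0.0151) and 0.86 (0.0152). It was also called in iCSC against Monolayer without Monolayer replicate 1, by 0.71 (0.0445). With 226363_at in its place, both differences from Monolayer were negative, -0.56 and -0.35, and not called.

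**Figure D3:**
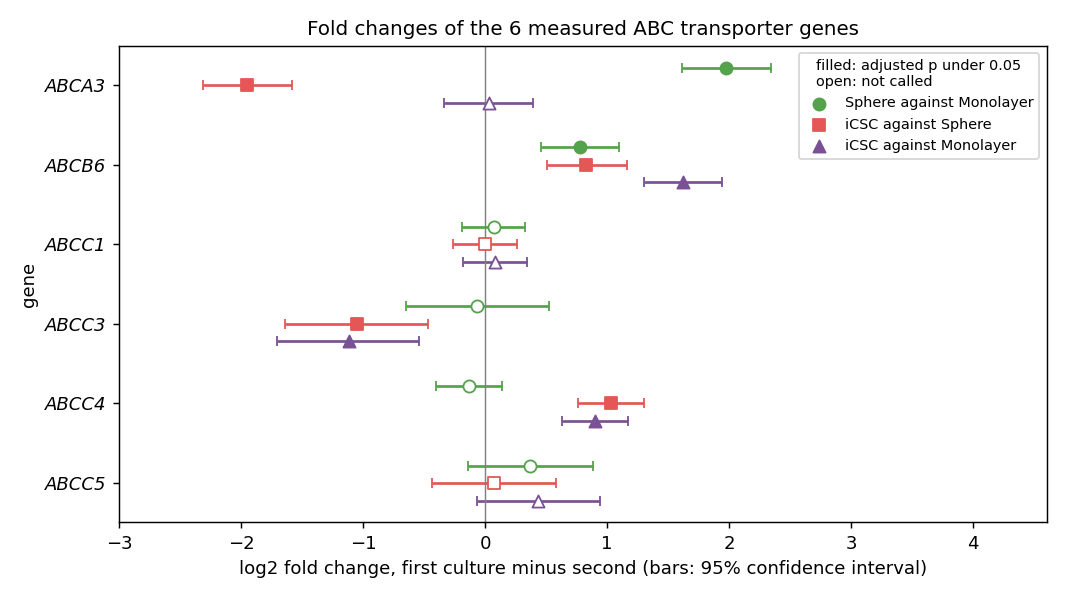
Log2 fold changes (horizontal axis) of the 6 measured transporter genes in the 3 comparisons, with bars for the 95% confidence interval from the fit over all 6 arrays, and filled symbols for an adjusted p under 0.05. ABCA3 lies at 1.97 and -1.95 in the first and second comparison, ABCB6 is above 0 in all 3, ABCC3 and ABCC4 lie on opposite sides of 0 in both iCSC comparisons, and all intervals of ABCC1 and ABCC5 include 0.

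Of the 28 probe sets of the 10 genes, 10 passed the filter and 18 stayed under the limit on all 6 arrays. In a fit over the 18059 passing single-gene probe sets, 2 of the 10 rose and 0 fell from Monolayer to Sphere, where 57.0% of all probe sets were called (28.1% higher, 28.9% lower). In iCSC against Sphere 2 were higher and 2 lower, against 34.5% (17.4% higher, 17.1% lower). In iCSC against Monolayer 2 were higher and 1 lower, against 54.2% (27.7% higher, 26.6% lower). The called probe sets were the leading ones of ABCA3, ABCB6, ABCC3 and ABCC4, and no second probe set of a member was called. Probe sets of a gene read different stretches of its transcripts, so unequal readings are a limit of the gene-level value.

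**Figure D4:**
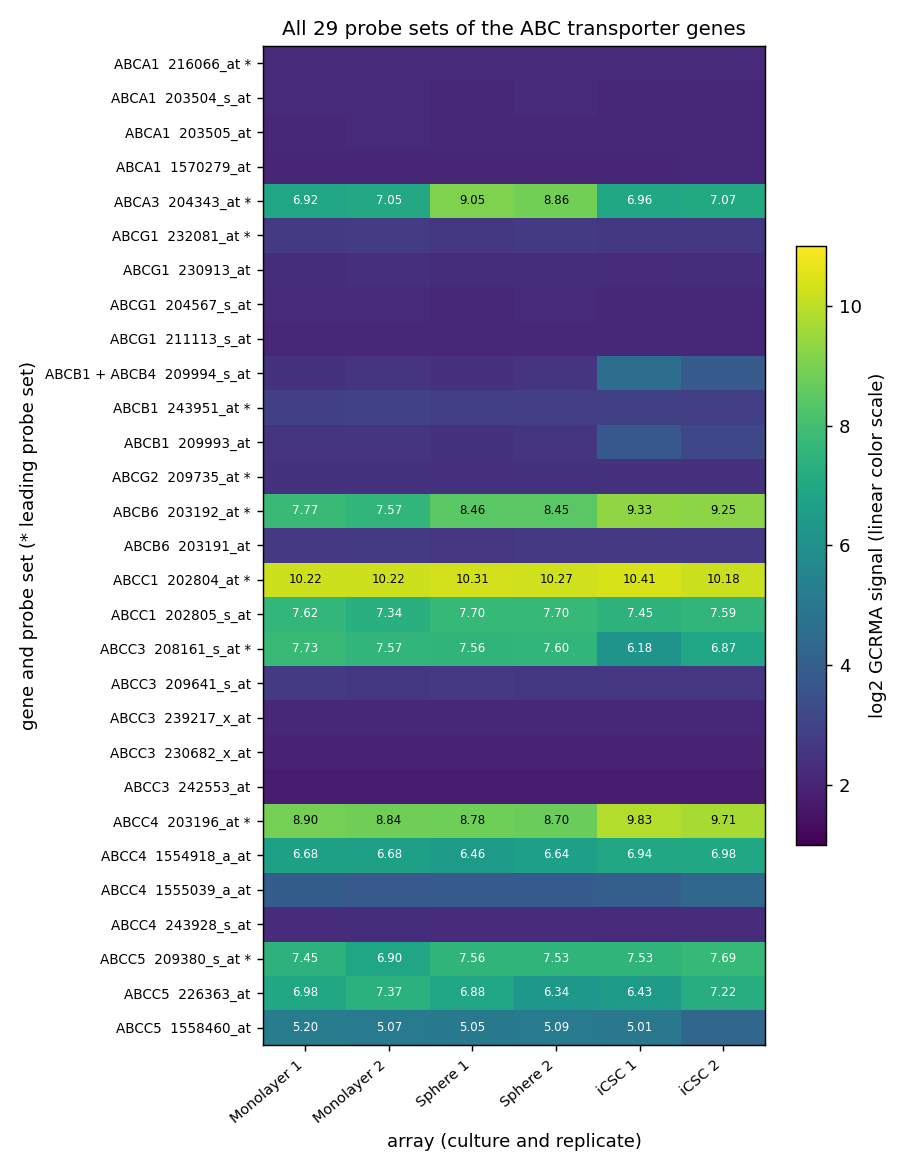
The log2 GCRMA signal (color) of all 29 probe sets of the 10 genes on the 6 arrays, an asterisk for the leading probe set of a gene, and the value printed where it reached the limit of log2 5. The probe sets of ABCC1, ABCC4 and ABCC5 that reach it number 2, 2 and 3, while ABCA3, ABCB6 and ABCC3 rest on 1 each.

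Over the 6 arrays, the genes that tracked the 3 members with the widest spans most closely were found by Pearson's r, which describes 6 points that share 3 cultures and carries no test. TMEM216 (r = 0.9995), RHOBTB1 (0.9993) and GNG3 (0.9992) followed ABCA3, all under the limit in Monolayer and iCSC and above it in Sphere. These 3 entered the test only through Sphere, so their shape, high in Sphere, was set by the filter. TMEM216 is a protein of the ciliary transition zone and GNG3 a G protein subunit of neurons. TNPO3, which carries splicing factors into the nucleus (r = 0.9984), ASAP3, which acts on Arf GTPases (0.9975), and ING5, a reader of histone marks (0.9973), followed ABCB6. PTPMT1, a mitochondrial lipid phosphatase (r = 0.9953), LRRN4 (0.9949) and KXD1 (0.9948) followed ABCC3. An r of 0.95 or more was reached by 432 genes (4.13% of those tested) for ABCA3, 350 (3.35%) for ABCB6 and 155 (1.48%) for ABCC3. The count for ABCA3 includes genes that entered only through Sphere.

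Among the other ABC transporters, ABCA5 rose in Sphere and ABCA7, TAP2 and ABCB10 fell. Of 34 listed genes 30 had a probe set of their own and 10 were tested, and 20 stayed under the limit on all arrays, with ABCB5, ABCC2 and ABCG4 among them. In Sphere against Monolayer 4 of the 10 rose and 5 fell (median -0.06), in iCSC against Sphere 1 rose and 1 fell (-0.09), and in iCSC against Monolayer 2 rose and 3 fell (-0.15), where 59.0%, 38.5% and 55.6% of all tested genes were called. Without Monolayer replicate 2 the first comparison called 5 of them. Without either Sphere array, or without iCSC replicate 1, iCSC against Sphere called 1.

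ABCA5, a lysosomal sterol transporter, read 3.70 and 2.96 in Monolayer, 6.99 and 7.08 in Sphere and 5.05 and 6.02 in iCSC. It entered the test through the spheroid cultures, so its direction there was set by the filter. It was at least 4.10-fold higher in Sphere than in Monolayer (limma, adjusted p = 2.74e-04). Its call upward in iCSC against Monolayer was lost with a floor at log2 5 (0.54, limma, adjusted p = 0.187) and without moderation (0.0534). The call of 2.83-fold lower in iCSC than in Sphere (adjusted p = 0.0215) was lost without moderation (0.137), without a filter (0.0610) and without either Sphere array (0.0921 and 0.104) or iCSC replicate 1 (0.0644). ABCA7, a phospholipid transporter related to ABCA1, read 6.41 and 6.47 in Monolayer, 5.09 and 4.90 in Sphere and 5.02 and 5.13 in iCSC. It fell by 1.44 ± 0.17 in Sphere and by 1.37 ± 0.17 in iCSC against Monolayer (adjusted p = 5.15e-04 and 7.88e-04), with 1 Sphere array under the limit.

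TAP2, which with TAP1 brings peptides to the antigen-presenting compartment, fell by 1.15 ± 0.17 in Sphere (limma, adjusted p = 0.00124) and was 0.95 ± 0.17 higher in iCSC than in Sphere (0.00533). ABCB10, a mitochondrial transporter needed for haem synthesis, was 2.02-fold lower in iCSC than in Monolayer (adjusted p = 3.45e-04), where ABCB6 was 3.07-fold higher. ABCB8, under the limit in Monolayer and at 5.46 and 5.38 in Sphere, was called at least 1.34-fold higher there (limma, adjusted p = 0.0203). It entered through the spheroid cultures, which set this direction, and the call was lost without either Sphere array, without moderation and without a filter. ABCA5 and ABCB8 were the 2 genes of this list called higher in iCSC than in Monolayer, a direction also set by the filter. There the ABCB8 call was lost in 10 of 17 alternatives. Named after their values were seen, TAP1 and ABCC10 were the other calls upward and ABCA2 and ABCD3 calls downward in Sphere against Monolayer.

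**Figure D5:**
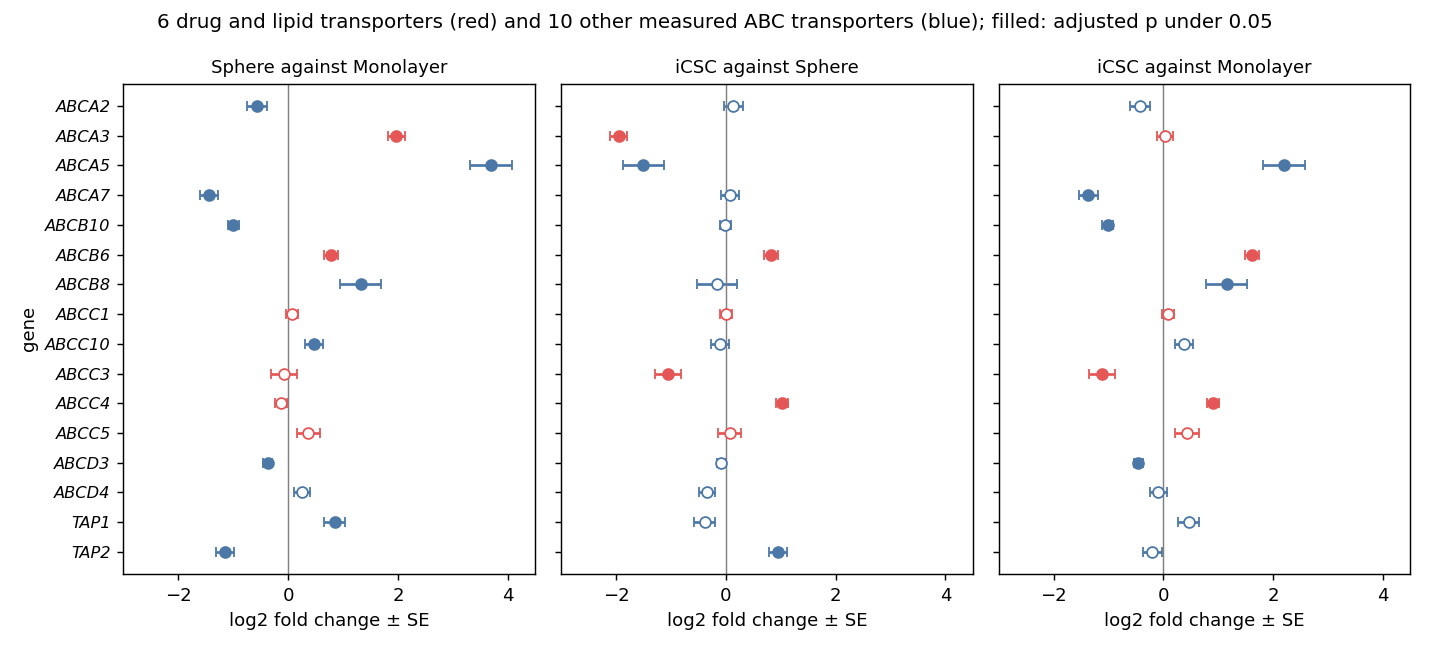
Log2 fold changes with SE (horizontal axis) of the 6 measured drug and lipid transporters in red and of 10 other measured ABC transporters in blue, 1 panel per comparison, filled where the adjusted p was under 0.05. Of the 16 genes only ABCB6 is called in the same direction in all 3 panels, and the values of ABCA5 and ABCB8 against Monolayer start under the limit and overstate the change.

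The 4 ABC proteins without a membrane domain, which act in translation, were all measured. ABCE1, which splits ribosomes, fell by 0.83 ± 0.16 in Sphere and by 0.95 ± 0.16 in iCSC against Monolayer (limma, adjusted p = 0.00427 and 0.00277), and ABCF2 fell by 0.49 and 0.60 (0.0243 and 0.0123). ABCF1 and ABCF3 were not called, and no gene of this list was called in iCSC against Sphere. The ABCF2 calls were lost without either Monolayer array, without moderation and without probe sets ending in x_at or s_at (0.0932 and 0.172), and its Sphere call also without Sphere replicate 1 and without a filter (0.0512). ABCE1 lost its Sphere call without moderation (0.0551).

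ABCA1 and ABCG1 are targets of the sterol-sensing LXR receptors, and 16 of 22 listed genes of sterol handling were tested. In Sphere against Monolayer 2 rose and 7 fell (median -0.28), in iCSC against Sphere 2 rose and 2 fell (0.20), and in iCSC against Monolayer 5 rose and 5 fell (-0.02). The share called among all tested genes was 59.0% (30.0% higher, 29.1% lower), 38.5% (19.3%, 19.2%) and 55.6% (29.0%, 26.6%). In both directions together, the list's counts were near the background or, in iCSC against Sphere, under it. In Sphere against Monolayer its falls outnumbered its rises. The 9 calls of the first comparison were 6 without Monolayer replicate 1, and the 10 of the last were 6 without it. The 4 calls of iCSC against Sphere were 2 without Sphere replicate 1 or iCSC replicate 1 and 6 without iCSC replicate 2.

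NR1H3, which encodes LXR-alpha, read 3.87 and 2.96 in Monolayer, 6.60 and 5.76 in Sphere and 3.94 and 4.70 in iCSC. It entered the test through Sphere, which set its direction, and was there at least 2.27-fold higher than in either other culture (limma, adjusted p = 0.00189 against Monolayer and 0.0168 against iCSC). The iCSC call was lost without moderation (0.129), without Sphere replicate 1 (0.101) and without iCSC replicate 1 (0.0708). APOE, which accepts the lipid that ABCA1 exports, rose by 1.97 ± 0.29 in Sphere and 1.70 ± 0.29 in iCSC against Monolayer (adjusted p = 0.00136 and 0.00297). MYLIP, which degrades the LDL receptor and is itself an LXR target, fell by 2.81 ± 0.42 and 2.15 ± 0.42 (0.00152 and 0.00553). It lost the iCSC call without moderation (0.0714).

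NCEH1, a cholesteryl ester hydrolase, was at least 4.73-fold lower in both spheroid cultures than in Monolayer (limma, adjusted p = 7.79e-05 and 1.31e-04). It entered the test through Monolayer, so its direction was set by the filter. SCARB1, the HDL receptor, rose by 1.47 ± 0.12 in iCSC against Sphere (adjusted p = 1.97e-04). NPC2, which moves cholesterol out of lysosomes, fell by 1.28 ± 0.10 there (adjusted p = 2.01e-04).

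ABCC1, ABCC3 and ABCC4 export conjugates of glutathione or glucuronide or travel with glutathione itself, and 19 of 22 genes of glutathione supply and conjugation were tested. In Sphere against Monolayer 5 rose and 6 fell (median -0.20), and in iCSC against Sphere 7 rose and 2 fell (0.22). In iCSC against Monolayer 6 rose and 4 fell (0.17). Rises outnumbered falls in iCSC against Sphere. In both directions together, the counts were near the 59.0% (30.0% higher, 29.1% lower), 38.5% (19.3%, 19.2%) and 55.6% (29.0%, 26.6%) called among all tested genes. Without Monolayer replicate 1 the last comparison called 6 of them. Without Sphere replicate 2 iCSC against Sphere also called 6. GSTM3, a glutathione transferase, read 2.18 on both Monolayer arrays, 8.06 and 8.24 in Sphere and 2.09 and 2.12 in iCSC. It entered through Sphere, which set its direction, and was at least 8.88-fold higher there than in either other culture (limma, adjusted p = 1.03e-06 and 3.29e-06). That its Sphere arrays stood above the 4 others follows from the filter, unlike for ABCA3, which was above the limit on every array.

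MGST2, a membrane-bound glutathione transferase, rose by 2.42 ± 0.20 in Sphere and 2.95 ± 0.20 in iCSC against Monolayer (limma, adjusted p = 1.18e-04 and 6.21e-05). GGT7, of the gamma-glutamyl transferase family, was 1.20 ± 0.20 higher in iCSC than in Sphere and 1.18 ± 0.20 higher than in Monolayer (0.00429 and 0.00280). UGT8, which makes galactosylceramide, was at 7.16 and 6.79 in iCSC and at 2.44 to 2.52 on the other arrays, at least 3.94-fold higher (adjusted p = 1.24e-05 and 7.88e-06). It entered the test through iCSC, so its direction was set by the filter. SLC7A11, the cystine carrier that feeds glutathione synthesis, was called lower in iCSC than in Monolayer (-2.12 ± 0.65, adjusted p = 0.0307), and that call was lost without any 1 of the 4 arrays compared.

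Of 19 listed regulators of drug transporter genes 14 were tested. In Sphere against Monolayer 6 rose and 1 fell (median 0.15), and in iCSC against Sphere 1 rose and 5 fell (-0.02). In iCSC against Monolayer 4 rose and 4 fell (0.11). Among all tested genes, 59.0% (30.0% higher, 29.1% lower), 38.5% (19.3%, 19.2%) and 55.6% (29.0%, 26.6%) were called. Without Monolayer replicate 1 the last comparison called 5 in all. EPAS1, a hypoxia-inducible factor subunit, read 6.34 and 5.81 in Monolayer, 11.52 and 10.85 in Sphere and 5.07 and 4.37 in iCSC. It rose by 5.10 ± 0.34 in Sphere and fell by 6.47 ± 0.34 in iCSC against Sphere (limma, adjusted p = 3.77e-05 and 2.98e-05). With 1 iCSC array under the limit, the fall may be overstated. AHR, the receptor for aryl hydrocarbons that controls ABCG2, fell by 2.25 ± 0.23 in Sphere and fell by 3.43 ± 0.23 in iCSC against Monolayer (2.80e-04 and 5.54e-05).

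FOXO3, a stress-responsive transcription factor, rose by 2.05 ± 0.18 and 2.14 ± 0.18 against Monolayer in the spheroid cultures (limma, adjusted p = 1.38e-04 and 1.43e-04). MYCN, the neuroblastoma oncogene known to act on ABCC1 and ABCC4, read 7.97 and 5.62 in iCSC and at most 2.73 elsewhere, so it entered through iCSC, which set its direction. It was called at least 3.48-fold higher there, with adjusted p (limma) of 0.00429 against Sphere and 0.00259 against Monolayer. Both calls went with a floor at log2 5 (0.0877 and 0.0682) and without moderation (0.0778 and 0.0561). In iCSC, ABCC4 was higher than in both other cultures and ABCC1 was not called. MYC rose by 1.44 ± 0.22 in Sphere against Monolayer (limma, adjusted p = 0.00161). Whether MYCN or MYC has a part in the transporter levels was not tested.

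Of 21 listed carriers that bring drugs into cells 11 were tested, and 1 rose and 6 fell both in Sphere and in iCSC against Monolayer (medians -0.90 and -0.48), while 3 rose and 2 fell in iCSC against Sphere (0.46). Of all tested genes, 30.0% rose and 29.1% fell in Sphere and 29.0% rose and 26.6% fell in iCSC against Monolayer, and 38.5% were called in iCSC against Sphere. The calls in iCSC against Monolayer numbered 4 without Monolayer replicate 1 or 2, and those in iCSC against Sphere numbered 3 without either Sphere array. SLCO3A1, an organic anion carrier, fell by 2.18 ± 0.20 in Sphere and 1.69 ± 0.20 in iCSC (limma, adjusted p = 1.69e-04 and 6.39e-04), and its relative SLCO4A1 fell by 2.37 ± 0.32 and 2.22 ± 0.32 (9.63e-04 and 0.00147). SLC29A2, a nucleoside carrier that can take up nucleoside drugs, fell by 1.79 ± 0.20 in Sphere (4.27e-04) and stood 1.06 ± 0.20 above Sphere in iCSC (0.00751), the latter lost without moderation (0.0660). SLC22A17, known as a lipocalin receptor, rose by 2.93 ± 0.22 in Sphere, with 1 Monolayer array under the limit, and fell by 2.64 ± 0.22 in iCSC against Sphere (7.56e-05 and 2.47e-04).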

How the data were processed

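RNA of 3 SK-N-AS cultures, 200 ng per sample, was hybridised to 6 arrays, per the labels' protocols. The authors deposited log2 values per probe set. GCRMA and Partek are named in the submitters' processing notes, with versions and settings not given in the sources used here. In GCRMA, unexpressed probe sets fall into a tight low band, so folds that start there are overstated. If both arrays of a culture lay under 5, they are given as lower bounds, with such values set to 5, beside the p-value of the deposited values. If only 1 did, that is said beside the difference.

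Probe sets with 1 symbol were used (41091 of 54675, updated to RefSeq GRCh38.p14 by Entrez identifier, 41037 matched). limma 3.58.1 in R 4.3.3 estimated the culture means from all 6 arrays, with variances moderated along a mean-variance trend (3 residual degrees of freedom) and p-values adjusted by Benjamini-Hochberg. The fit was tested on simulated data. Alternatives covered filters, floor, normalization, probe set choice, variance model, chromosome medians, replicate block and leaving out each array. Chromosome medians were taken off culture by culture, as the median deviation of a chromosome's genes from their means over the 6 arrays. Figures used matplotlib 3.10.9.

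The members and lists were chosen with earlier results of these data known. The text names all members, and the 3 genes most like each of the 3 members with the widest span. For each list, up to 4 called genes per comparison with the largest change and no overlap between arrays were picked out. The text names only part of these. A further list, of other drug efflux genes, is not described. Replicate numbers were not taken as pairs in the reported fit. The differences between replicates 1 and 2 correlated at 0.03 between Monolayer and Sphere and at -0.023 between Monolayer and iCSC. Between Sphere and iCSC they correlated at 0.202. Counts from a fit with a replicate block are given below.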

Additional observations from a re-analysis of the deposited data

How the results depend on the processing

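Of the 18 member results (6 genes in 3 comparisons), 14 stayed on their side of the threshold under all alternatives that gave a value. Of 321 values, 294 kept direction and side, 5 lost the call (all ABCC3) and 3 gained it (all ABCC5). The other 19 changed sign, all of them differences that were called neither as reported nor under the alternative. They include ABCC5 against Monolayer without probe sets ending in x_at or s_at (-0.56 in Sphere, -0.35 in iCSC) and with the mean of its probe sets (-0.09 and -0.13). ABCC3 has no value where probe sets ending in x_at or s_at are left out. Over the alternatives, the adjusted p (limma) ranged from 0.00348 to 0.101 for ABCC3 in iCSC against Sphere and from 0.00191 to 0.0664 in iCSC against Monolayer. With the replicate block, 6219, 4106 and 5891 genes were called in Sphere against Monolayer, iCSC against Sphere and iCSC against Monolayer (6176, 4022 and 5812 without it), and the block changed no member call. In iCSC against Sphere 2281 genes were called without variance moderation, and 2574 (without Sphere replicate 1) to 3883 with 1 array left out. The count of called members in that comparison was 3 to 4 with 1 array left out. In Sphere against Monolayer 4530 to 6604 genes, and in iCSC against Monolayer 3957 to 5646, were called with 1 array left out. Without an array, a culture of 1 array is assumed to vary like the others. The list counts and listed genes under the alternatives were computed after seeing the data. Signal over background limits ABCA1, ABCB1, ABCG1 and ABCG2, for which no change under log2 5 can be read.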
